A study of Mus musculus with 3 samples.

Results

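The genes described here encode the protein components of the mitochondrial ribosome. They were taken as every gene symbol in the deposited liver RNA tables that begins with Mrpl or Mrps and a number, the names for proteins of the large and of the small mitochondrial ribosomal subunit. This gave 76 of 23356 gene symbols, 47 of the large and 29 of the small subunit. All 76 had a valid estimate in each library, and all reached at least 1 FPKM in at least 1 library of each pair compared. Levels are in FPKM, a fragment number scaled to the length of the transcript and to the size of the library, so that genes of a library can be compared with each other.

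The RNA came from livers of mice aged 16 weeks on a C57BL6J/FVB background, sequenced after removal of ribosomal RNA. There were 3 libraries, 1 per group. Ercc1 DR came from Ercc1 delta/- mice under diet restriction, Ercc1 AL from Ercc1 delta/- mice fed without limit, and wt AL from wild-type mice fed without limit. Ercc1 is part of a DNA repair endonuclease, and delta/- mice, which carry a truncated allele over a null allele, age early. Both Ercc1 libraries share that genotype. The labels leave unsaid how many livers went into each library, which sex the animals had, how strong or long the restriction was, or at what time of day the livers were taken. Restricted wild-type mice are not among these libraries, so an effect of diet outside the mutant cannot be read from them. Since each group is a single library, the spread among animals is unknown, and neither a test nor an SD is given. Every difference below compares libraries. A ratio was counted as past the threshold at 2-fold in either direction.

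Mitochondria carry their own ribosomes, which translate the few proteins encoded by mitochondrial DNA, all of them membrane subunits of the respiratory chain and ATP synthase. The ribosomal RNAs are made inside the organelle, whereas every ribosomal protein is encoded in the nucleus, made in the cytosol and imported. Many of these proteins descend from those of bacterial ribosomes, and the others were added during the evolution of mitochondria. In liver, where mitochondria carry fat oxidation, ketone production and part of the urea cycle, mitochondrial translation sustains the respiratory chain behind these pathways.

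Promoters of some genes named below are shown first, since nuclear genes for mitochondrial proteins are known for recurring factor motifs close to their starts. The windows are those of RefSeq on GRCm38.p6, which has the coordinates of mm10. Each runs from 250 bases before to 50 bases after the gene start, 5′ to 3′ on the strand of the gene. Capitals mark exact matches, on either strand, to GCATGCGC (the core of the motif of NRF1, a regulator of nuclear genes for mitochondria), to CCGGAAG (ETS factors such as GABPA, also called NRF2) or to the motif of the factor YY1, whose letters are the last run of capitals in the Mrps27 window. Mrpl32, Mrpl47 and Mrpl3 had the largest ratios between Ercc1 DR and wt AL, Mrps27 is a small subunit gene of the same direction, and Mrps18c went the other way. The small subunit genes shown are not the most extreme ones. Mrps2 (log2 ratio 0.99), Mrps23 (0.98) and Mrps18b (0.90) lay above Mrps27 (0.89), and Mrps14 (-0.56) lay below Mrps18c (-0.50). Of these genes not shown, Mrps23 and Mrps18b had a motif match, and Mrps2 and Mrps14 had none. The windows lie at chr13:14612988-14613287 on the minus strand for Mrpl32, chr3:32736706-32737005 on the minus strand for Mrpl47, chr9:105053018-105053317 on the plus strand for Mrpl3, chr13:99344536-99344835 on the plus strand for Mrps27 and chr5:100798509-100798808 on the plus strand for Mrps18c.
Mrpl32: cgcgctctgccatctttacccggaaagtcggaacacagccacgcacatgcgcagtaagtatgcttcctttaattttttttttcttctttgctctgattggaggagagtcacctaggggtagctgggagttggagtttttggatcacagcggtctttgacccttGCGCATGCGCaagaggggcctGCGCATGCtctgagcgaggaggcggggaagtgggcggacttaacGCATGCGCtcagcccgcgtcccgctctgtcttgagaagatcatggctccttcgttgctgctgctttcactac
Mrpl47: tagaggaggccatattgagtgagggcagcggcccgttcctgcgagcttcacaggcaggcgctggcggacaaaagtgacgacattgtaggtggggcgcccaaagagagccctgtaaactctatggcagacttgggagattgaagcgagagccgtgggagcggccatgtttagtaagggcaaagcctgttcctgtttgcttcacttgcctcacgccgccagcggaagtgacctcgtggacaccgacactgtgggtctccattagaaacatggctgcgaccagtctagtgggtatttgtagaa
Mrpl3: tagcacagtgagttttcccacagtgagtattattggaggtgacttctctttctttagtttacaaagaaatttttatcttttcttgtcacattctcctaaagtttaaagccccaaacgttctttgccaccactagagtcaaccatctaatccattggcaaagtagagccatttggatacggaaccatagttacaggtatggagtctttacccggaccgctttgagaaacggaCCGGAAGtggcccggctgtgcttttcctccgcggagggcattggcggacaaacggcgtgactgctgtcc
Mrps27: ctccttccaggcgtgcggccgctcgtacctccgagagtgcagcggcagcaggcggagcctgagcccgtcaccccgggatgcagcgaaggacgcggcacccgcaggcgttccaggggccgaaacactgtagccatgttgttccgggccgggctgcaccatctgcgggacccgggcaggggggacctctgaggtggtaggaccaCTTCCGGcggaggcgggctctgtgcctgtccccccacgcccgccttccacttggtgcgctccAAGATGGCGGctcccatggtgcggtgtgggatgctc
Mrps18c: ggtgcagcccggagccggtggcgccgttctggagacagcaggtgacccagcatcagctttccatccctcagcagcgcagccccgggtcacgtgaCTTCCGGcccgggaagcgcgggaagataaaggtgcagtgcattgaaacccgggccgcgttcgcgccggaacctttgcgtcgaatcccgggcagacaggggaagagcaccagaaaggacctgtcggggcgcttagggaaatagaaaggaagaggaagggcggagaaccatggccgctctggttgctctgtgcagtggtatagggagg

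The Mrpl32 window held 4 matches to the NRF1 core. A pair of them overlaps on opposite strands and makes up the full NRF1 palindrome, the first run of capitals in that window. Mrpl3 and Mrps18c each had an ETS match, Mrps27 an ETS match and, after the start, a YY1 match, and the letters searched were not in the Mrpl47 window. RefSeq windows were matched for 67 of the 76 genes, 73 windows in all because some genes have more than 1 start. No entry was matched for Mrpl4, Mrpl13, Mrpl15, Mrpl19, Mrpl38, Mrpl54, Mrps28, Mrps34 and Mrps35. CCGGAAG was in 24 windows of mitochondrial ribosomal protein genes (32.9%), against 8.86% of all 32851 windows of the table and 17.7% of the windows of expressed genes, those that reached 1 FPKM in every library. The YY1 motif was in 5 windows (6.85%), against 0.852% of all windows and 2.26% of those of the expressed genes. The NRF1 core GCATGCGC was in 8 windows (11%), against 2.71% and 5.35%, and the palindrome, which contains it on both strands, was in the windows of Mrpl32, Mrpl9 and Mrpl39 (4.11%), against 0.971% and 2.23%. CACGTG, the E-box bound by MYC and other factors, was in 7 windows (9.59%), against 7.15% and 10.2%. Those windows belong to 5 genes, since Mrpl2 has several overlapping ones. The E-box in the Mrps18c window is left in lower case.

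By subunit, the NRF1 core stood in 7 of 46 large subunit windows and 1 of 27 small subunit windows, that of Mrps18b. CCGGAAG stood in 13 large and 11 small subunit windows. Of 28 ETS matches 25 had their centre between 100 bases before and 50 bases after the start, as had 4 of 5 YY1 matches. The same held for 10 of 14 matches to the NRF1 core, where each palindrome counts on both strands. Such placing is common among promoters. Of expressed-gene windows with CCGGAAG, 1113 of 1420 held it in those 150 bases, against 21 of 24 here. For YY1 these were 148 of 181 against 4 of 5, and for the NRF1 core 307 of 429 against 6 of 8. Of 7 E-box matches 2 lay in that stretch, but the Mrpl2 matches among the others are the same site seen in overlapping windows. Among expressed genes, 514 of 815 windows with an E-box held it there. Genes with a CCGGAAG match had a median log2 ratio of 0.33 between Ercc1 DR and wt AL, against 0.49 for the 43 genes without one. For the NRF1 core these medians were 0.47 over 8 genes and 0.46 over the other 59. A match is a run of letters and no measurement of binding.

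**Figure D1:**
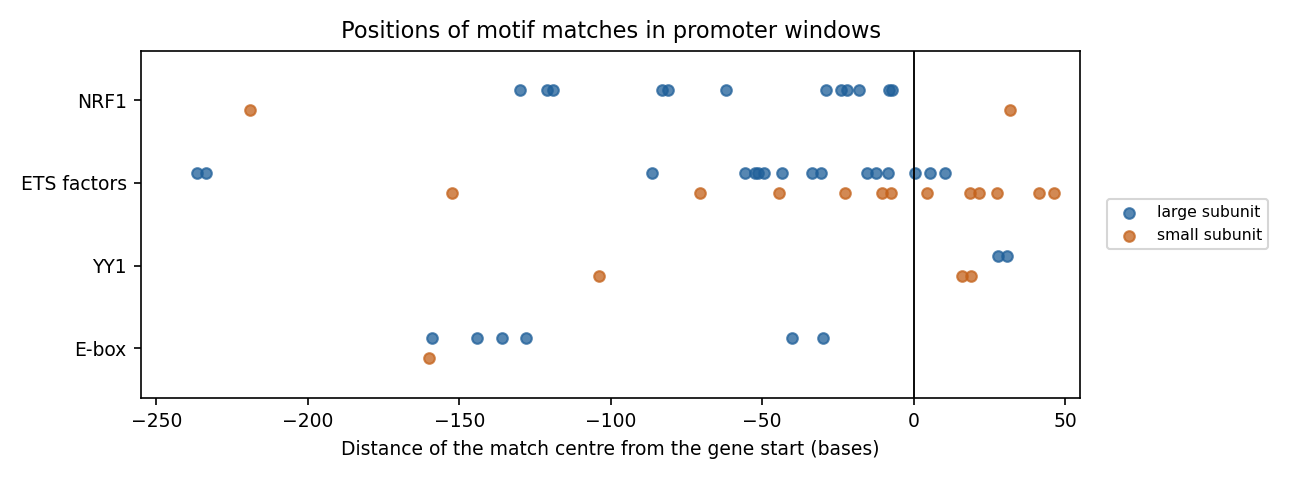
Distance in bases from the gene start to the centre of each motif match in the RefSeq windows, for large subunit genes (blue) and small subunit genes (orange). Points are matches and the vertical line is the start. ETS matches crowd around the start, 25 of 28 of them between 100 bases before and 50 after it, and 4 of 5 YY1 matches lie just after it. Most windows of expressed genes with these motifs also hold them near the start. Of the E-box matches 5 of 7 lie further upstream, but those of Mrpl2 are the same site in overlapping windows.

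Levels were moderate. The median mitochondrial ribosomal protein gene was at 8.55 FPKM in Ercc1 DR, 5.44 FPKM in Ercc1 AL and 3.33 FPKM in wt AL. Over 8457 expressed genes, with symbols of small RNAs such as snoRNAs and microRNAs left out, the medians were 4.89, 3.90 and 2.82 FPKM. These are in the same order of libraries. The median of the 76 genes sat at the 68.3rd percentile of those genes in Ercc1 DR, the 62.5th in Ercc1 AL and the 56.2nd in wt AL. Summed over the 76 genes the level was 911.2 FPKM in Ercc1 DR, 556.7 in Ercc1 AL and 368.9 in wt AL.

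Members differed widely in level within a library, although the ribosome holds most of these proteins in equal number. In wt AL the highest gene stood 47.2-fold above the lowest, and in Ercc1 DR 33.6-fold. Mrpl12, a protein of the flexible stalk that recruits translation factors, was at 54.9 FPKM in Ercc1 DR, 25.2 in Ercc1 AL and 17.1 in wt AL. Mrpl42, a component without a bacterial counterpart, was at 47.9, 24.8 and 13.9 FPKM in the same order of libraries. Both lay among the 5 highest genes of every library.

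Mrps18c, a relative of a protein of bacterial small subunits, led the small subunit genes in wt AL with 35.4 FPKM and in Ercc1 DR with 42.8 FPKM, and was at 21.6 FPKM in Ercc1 AL. Mrps21, also of bacterial descent, was at 20.8 FPKM in Ercc1 DR, 13.3 in Ercc1 AL and 10.8 in wt AL. The lowest gene of the small subunit was Mrps25, with 1.64 FPKM in Ercc1 DR, 1.13 in Ercc1 AL and 0.750 in wt AL. At the low end of the large subunit stood Mrpl19, with 1.71, 1.07 and 0.891 FPKM, and Mrpl41, with 1.70, 1.19 and 0.914 FPKM, in the same order. In Ercc1 DR and Ercc1 AL every gene was above 1 FPKM, and in wt AL 6 were below it.

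The order of the genes by level was much the same in the libraries. Spearman's rho over the 76 genes was 0.93 between Ercc1 DR and Ercc1 AL, 0.92 between Ercc1 DR and wt AL and 0.95 between Ercc1 AL and wt AL. These are descriptions over genes that share transcript lengths and the authors' gene models. Shorter transcripts tended to have higher FPKM, with rho between level and transcript length of -0.35 in Ercc1 DR, -0.42 in Ercc1 AL and -0.43 in wt AL. Transcripts ran from 418 to 7300 bases with a median of 1284.

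The deposited intervals of the FPKM were narrow. In the median gene a bound lay 8.85% away from the middle of the interval in Ercc1 DR, 10.6% in Ercc1 AL and 14.2% in wt AL. They cover counting and assignment of fragments within 1 library and say nothing of other animals. The deposited FPKM lay above its own upper bound in 55 of the 76 genes in Ercc1 DR, 46 in Ercc1 AL and 35 in wt AL. Mrpl12 in Ercc1 DR, at 54.9 FPKM with bounds of 42.2 and 45.9, is such a case. The ratio of FPKM to interval midpoint was largest for short transcripts, up to 1.89 for Mrps21 in Ercc1 DR, and comparisons of level between genes carry that uncertainty.

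**Figure D2:**
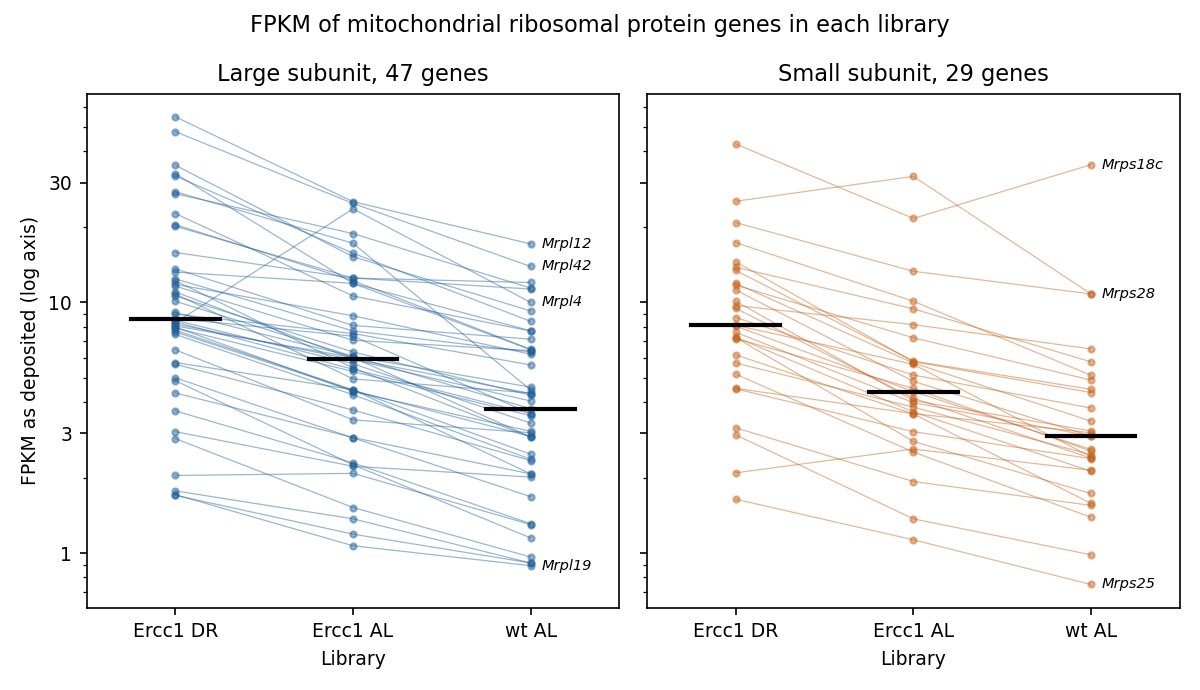
Deposited FPKM (log axis) of each large subunit gene (left, 47 genes) and small subunit gene (right, 29 genes) in Ercc1 DR, Ercc1 AL and wt AL, with a line joining the values of a gene and a black bar at the median. Nearly all lines descend toward wt AL, where the medians are 3.77 FPKM for the large and 2.93 FPKM for the small subunit. Mrpl4, Mrps28 and Mrps18c cross the others.

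The libraries differed in overall scale. Over 9053 genes with at least 1 FPKM in every library the median FPKM ratio was 1.72-fold between Ercc1 DR and wt AL (0.78 on the log2 scale), 1.41-fold between Ercc1 AL and wt AL (0.49) and 1.26-fold between Ercc1 DR and Ercc1 AL (0.34). Ratios below are log2 ratios of FPKM + 1 after this shift was taken out, unless given as deposited, and the added 1 understates the change of low genes. The scale decides the balance of the 2-fold calls over all genes. After rescaling, 26.6% of calls between Ercc1 DR and wt AL were higher ones, against 73.8% as deposited, and the shares were 20.5% and 42.8% between Ercc1 DR and Ercc1 AL, and 32% and 72.2% between Ercc1 AL and wt AL. The widths of the deposited intervals imply about 25 M fragments in Ercc1 DR, 25.1 M in Ercc1 AL and 19 M in wt AL. The gene altered in the mutant, Ercc1, was at 0.475 FPKM in Ercc1 DR (bounds 0.300 and 0.634), 0.573 in Ercc1 AL (0.377 and 0.720) and 0.461 in wt AL (0.283 and 0.630). These intervals overlap, so the level of Ercc1 does not check the genotype labels.

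In the restricted mutant compared with the freely fed wild type, most mitochondrial ribosomal protein genes were higher, the median gene by less than 2-fold. After rescaling, 66 of 76 genes had a ratio above 0, or 86.8% of them, against 48.0% of all 12054 genes measured. Ratios ran from -0.95 to 1.68, and 10 genes lay below 0. The median log2 ratio was 0.46, with the middle 50% of genes from 0.17 to 0.78, against a median of -0.03 and a range of -0.64 to 0.39 over all genes. Past 2-fold, 5 genes were higher (6.58%, against 5.93% of all genes) and none was lower (against 16.4% of all genes). The share past 2-fold upward was therefore close to that of the transcriptome, whereas the genes lower past 2-fold, 16.4% of the transcriptome, had no counterpart here.

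Those 5 all belong to the large subunit and all have bacterial counterparts. With a pseudocount of 0.1 neither held, since genes such as Mrps35 (1.18), of the small subunit and without a counterpart, also passed. Mrpl47, which sits at the mouth of the tunnel through which the new protein leaves, was at 27.6 FPKM in Ercc1 DR, 17.2 in Ercc1 AL and 4.47 in wt AL, and its log2 ratio between Ercc1 DR and wt AL was 1.68. Its gene lies at chr3:32727497-32736755 on the minus strand and shares exonic sequence on the other strand with Ndufb5 and Actl6a. Mrpl32, a protein that the mitochondrial m-AAA protease has to trim before it joins the ribosome, was at 32.6 FPKM in Ercc1 DR, 11.9 in Ercc1 AL and 7.70 in wt AL, with a ratio of 1.22. Ercc1 DR was thus the high library for both genes, but for Mrpl47 Ercc1 AL was also well above wt AL. The Mrpl32 gene, at chr13:14610301-14613037 on the minus strand, has a near-identical copy, Gm6578, and fragments of the pair may not have been separated.

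Mrpl3, a protein whose bacterial relative lies close to the catalytic centre, was at 12.2 FPKM in Ercc1 DR, 5.47 in Ercc1 AL and 2.90 in wt AL, a ratio of 1.10 between Ercc1 DR and wt AL. The ratio was 1.08 for Mrpl30, with 35.2, 15.2 and 9.24 FPKM in the same order. For Mrpl13, with 31.9, 15.7 and 8.40 FPKM, it was 1.07. All of them were highest in Ercc1 DR and lowest in wt AL. Mrpl3 shares exonic sequence with predicted genes on both strands and Mrpl13 with Mtbp on the other strand, while no such overlap or copy was found for Mrpl30 at chr1:37890553-37898333.

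Small subunit genes came close to 2-fold without passing it. Mrps2, a conserved protein, was at 7.23 FPKM in Ercc1 DR, 2.79 in Ercc1 AL and 1.73 in wt AL, with a ratio of 0.99 between Ercc1 DR and wt AL. Mrps35, a component added in mitochondria, had the same ratio of 0.99, with 9.46 FPKM in Ercc1 DR against 2.39 FPKM in wt AL. For Mrps23, another such component, the ratio was 0.98, and for Mrps18b it was 0.90. These genes fell just short of 2-fold and Mrpl13 just passed it, so that the count of 5 rests on small differences. With a pseudocount of 0.1 in place of 1 the count was 12 (15.8%, against 9.62% of all genes), and with a minimum of 5 FPKM in place of 1 it was 5 of 61 genes (8.20%, against 12.9%). Whether the upward share exceeded that of all genes thus depended on these settings.

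Few genes were lower. Mrpl4, whose bacterial relative reaches into the exit tunnel, was at 8.30 FPKM in Ercc1 DR, 23.6 in Ercc1 AL and 10 in wt AL, a ratio of -0.95 between Ercc1 DR and wt AL. Mrps14, a conserved protein of the head of the small subunit, was at 2.09, 2.60 and 2.14 FPKM in the same order, a ratio of -0.56. For Mrps18c, with 42.8 FPKM in Ercc1 DR and 35.4 in wt AL, it was -0.50. In deposited FPKM Mrps18c was thus higher in Ercc1 DR, and it was lower relative to the scale of the library. The ratio was -0.28 for Mrpl14 and -0.19 for Mrps7.

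The deposited intervals were also set side by side after rescaling. They lay apart with the higher value in Ercc1 DR for 48 genes (63.2%, against 33.7% of all genes). They lay apart with the lower value in Ercc1 DR for 3 genes (3.95%, against 38.3%), which were Mrpl4, Mrps14 and Mrps18c. In the values as deposited, 45 genes were past 2-fold upward (59.2%, against 24.1% of all genes) and none downward (against 8.56%), with a median log2 ratio of 1.12 against 0.50 over all genes. Deposited intervals without rescaling lay apart upward in 73 genes (96.1%, against 62.8% of all genes).

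**Figure D3:**
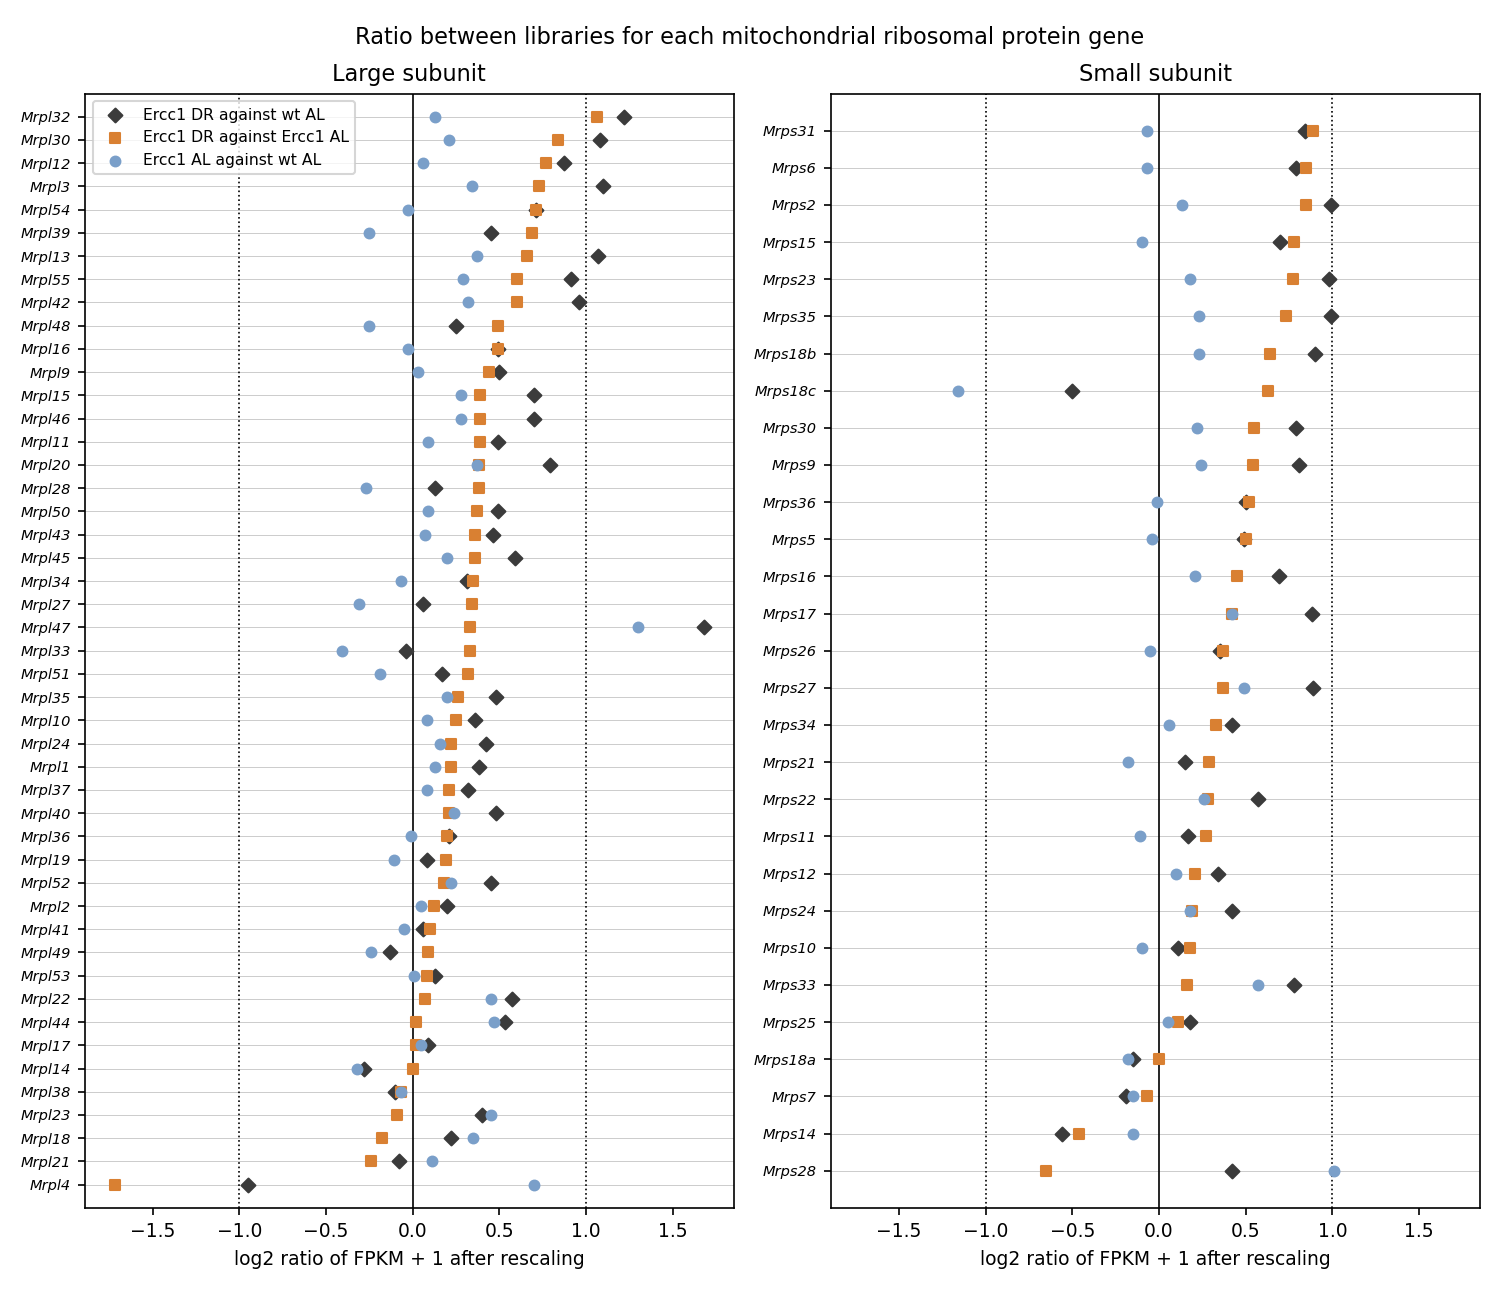
Rescaled log2 ratio of FPKM + 1 for each gene of the large (left) and small (right) subunit, sorted by the ratio of Ercc1 DR to Ercc1 AL. Diamonds compare Ercc1 DR with wt AL, squares Ercc1 DR with Ercc1 AL and circles Ercc1 AL with wt AL, and dotted lines mark 2-fold. Diamonds and squares lie mostly right of 0 and circles around it, with Mrpl47, Mrpl4, Mrps28 and Mrps18c apart from the rest.

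Within the mutant, genes of the mitochondrial ribosome were again mostly higher in the restricted library, by a smaller amount. This comparison and the previous one share the Ercc1 DR library, so their values are not independent. Of the 76 genes 66 had a ratio above 0 (86.8%, against 44.8% of all 12295 genes measured). The median log2 ratio was 0.34, with the middle 50% of genes from 0.18 to 0.52, against a median of -0.06 and a range of -0.54 to 0.26 over all genes. One gene was higher past 2-fold, Mrpl32 (1.32%, against 3.07% of all genes), and 1 was lower, Mrpl4 (1.32%, against 11.9%).

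Mrpl32 had a ratio of 1.06, with 32.6 FPKM in Ercc1 DR against 11.9 FPKM in Ercc1 AL. Next came Mrps31, a small subunit component without a bacterial counterpart, at 14.5 FPKM in Ercc1 DR and 5.80 in Ercc1 AL, with a ratio of 0.89. The ratio was 0.85 for Mrps2 and for Mrps6, both conserved proteins, and 0.84 for Mrpl30. In Mrps31 and Mrps6 Ercc1 AL was close to wt AL after rescaling, with a ratio of -0.07 between those libraries for each. Mrps15 and Mrps23 followed in the small subunit with 0.78 and 0.77, and Mrpl12 and Mrpl3 in the large subunit with 0.77 and 0.73.

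At the other end, Mrpl4 had a ratio of -1.72, the largest in size of any of the 76 genes in any comparison. Its level in Ercc1 AL, 23.6 FPKM with bounds of 19.4 and 21.5, was the one that stood apart, above both Ercc1 DR and wt AL. The gene lies at chr9:21002737-21008837 on the plus strand with 9 exons, and no exonic overlap or near-identical copy was found. Mrps28, a small subunit protein with a bacterial counterpart, was at 25.3 FPKM in Ercc1 DR, 31.8 in Ercc1 AL and 10.8 in wt AL, a ratio of -0.65 between Ercc1 DR and Ercc1 AL. In this gene, too, Ercc1 AL was the highest library. Mrps14 had a ratio of -0.46, Mrpl21 of -0.24 and Mrpl18 of -0.18.

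Rescaled intervals of Ercc1 DR lay above those of Ercc1 AL in 44 genes (57.9%, against 29.6% of all genes). They lay below in 3 genes (3.95%, against 38.4%), Mrpl4, Mrps14 and Mrps28. As deposited, 11 genes were higher past 2-fold (14.5%, against 6.47% of all genes) and 1 was lower (1.32%, against 8.65%), and intervals lay apart upward in 69 genes (90.8%, against 47.6%).

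In the freely fed mutant compared with the freely fed wild type the genes lay near the middle of the transcriptome. This comparison shares a library with each of the others. After rescaling, 48 of 76 genes had a ratio above 0 (63.2%, against 50.9% of all 12294 genes), and the median log2 ratio was 0.08 against 0.01 over all genes. Past 2-fold, 2 genes were higher (2.63%, against 2.30% of all genes) and 1 was lower (1.32%, against 4.90%). The counts past 2-fold are near those of the transcriptome and distinguish the genes in neither direction.

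The genes past 2-fold were Mrpl47, with a ratio of 1.30, 17.2 FPKM in Ercc1 AL against 4.47 FPKM in wt AL, Mrps28, with 1.01, and Mrps18c, with -1.16. Mrps18c was the low outlier because of Ercc1 AL, at 21.6 FPKM with bounds of 12.2 and 15, against 35.4 FPKM with bounds of 20.1 and 24 in wt AL. The FPKM of Mrps18c exceeds its own upper bound in every library. The gene, at chr5:100798759-100804467 on the plus strand, shares exonic sequence on the same strand with the predicted gene Gm43511, so part of its fragments may be assigned to either. Mrps28, at chr3:8802146-8923857 on the minus strand, has no exonic overlap or near-identical copy.

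Further large subunit genes toward the top were Mrpl4 with 0.70, Mrpl44, which has a fold of the RNase III family, with 0.47, and Mrpl22 and Mrpl23 with 0.45 each. In the small subunit Mrps33 had 0.57, Mrps27, a pentatricopeptide repeat protein, 0.49, and Mrps17 0.42. Toward the bottom stood Mrpl33 with -0.41, Mrpl14 with -0.32, Mrpl27 with -0.31 and Mrpl28 with -0.27. Mrps18a and Mrps21 each had -0.18. The spread over the genes was small, with an interquartile range of 0.31 against 0.47 over all genes. Rescaled intervals lay apart upward in 15 genes (19.7%, against 24.1% of all genes) and downward in 5 (6.58%, against 27.7%). As deposited, 3 genes were higher past 2-fold (3.95%, against 5.70% of all genes) and none was lower (against 2.20%), with a median of 0.48 against 0.34 over all genes, and intervals lay apart upward in 55 genes (72.4%, against 61.7%).

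Both subunits had medians above 0 in each comparison. Between Ercc1 DR and wt AL the median log2 ratio was 0.45 over the 47 large subunit genes, with the middle 50% from 0.15 to 0.64, and 0.50 over the 29 small subunit genes, with the middle 50% from 0.18 to 0.81. Between Ercc1 DR and Ercc1 AL the medians were 0.33 for the large and 0.37 for the small subunit, and between Ercc1 AL and wt AL they were 0.09 and 0.06. The gap between the subunits against wt AL depended on how low values were treated. In Ercc1 DR against wt AL the median was 0.48 for the large and 0.69 for the small subunit with a pseudocount of 0.1, 0.46 and 0.70 with a minimum of 5 FPKM, and 0.48 and 0.75 over the 33 genes without an overlapping gene or copy. With a minimum of 5 FPKM the median of all genes in that comparison was itself 0.24. A difference between the subunits was not tested. Ratios above 0 were found for 41 large and 25 small subunit genes both in Ercc1 DR against wt AL and in Ercc1 DR against Ercc1 AL. The 5 genes past 2-fold in Ercc1 DR against wt AL were all of the large subunit, but small subunit genes reached up to 0.99 there.

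In level, the large subunit genes had a median of 8.62 FPKM in Ercc1 DR, 5.95 in Ercc1 AL and 3.77 in wt AL. The small subunit genes had 8.10, 4.41 and 2.93 FPKM in the same order. Grouping here follows the gene symbol. In structures of the mammalian mitochondrial ribosome the proteins of Mrps30 and Mrps18a lie in the large subunit, and Mrps36 is now counted as part of the alpha-ketoglutarate dehydrogenase complex. Their ratios between Ercc1 DR and wt AL were 0.79 for Mrps30, -0.15 for Mrps18a and 0.50 for Mrps36.

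Over both subunits together, descent from bacteria made little difference to the medians. Between Ercc1 DR and wt AL the 47 genes with a bacterial counterpart had a median of 0.42 and the 29 without one 0.49. These medians were 0.33 and 0.36 between Ercc1 DR and Ercc1 AL, and 0.09 and 0.08 between Ercc1 AL and wt AL. The genes past 2-fold in any comparison all had a bacterial counterpart. The 11 small subunit genes without one (Mrps22, Mrps23, Mrps25, Mrps26, Mrps27, Mrps30, Mrps31, Mrps33, Mrps34, Mrps35 and Mrps36) had a median of 0.78 between Ercc1 DR and wt AL, with all 11 above 0, from 0.18 for Mrps25 to 0.99 for Mrps35. That was the highest median of the groups by subunit symbol and descent. Small subunit genes with a counterpart had 0.42, and large subunit genes 0.40 with and 0.46 without one. The difference by descent within the small subunit was not tested, and the 11 genes include Mrps30 and Mrps36, grouped here by symbol.

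Across the 3 libraries the commonest order after rescaling was Ercc1 DR above Ercc1 AL above wt AL. It was found for 43 of 76 genes (56.6%, against 28.9% of the 9053 genes used for scaling). A further 20 genes (26.3%, against 14.4%) had Ercc1 DR highest and Ercc1 AL lowest. The reverse order, wt AL above Ercc1 AL above Ercc1 DR, held for 3 genes (3.95%, against 25.9%). In the values as deposited 71 of 76 genes had Ercc1 DR highest, Ercc1 AL between and wt AL lowest.

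Reads of neighbouring or copied genes may enter some of these values, because it is not given whether counting used the strand. In the GENCODE M21 annotation 27 of the 76 genes share exonic sequence with a gene on the other strand and 8 with one on the same strand, and 18 have a near-identical copy elsewhere, at 95% identity over at least 200 bases. For the 33 genes without any of these the median log2 ratio was 0.49 between Ercc1 DR and wt AL, 0.37 between Ercc1 DR and Ercc1 AL and 0.13 between Ercc1 AL and wt AL. These medians are close to those of all 76 genes. Of the 5 genes past 2-fold between Ercc1 DR and wt AL, Mrpl30 is the one among these 33.

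Many of the genes start back to back with another gene. A gene on the other strand began within 1000 bases upstream, or with an overlap of at most 300 bases, for 25 of 76 genes (32.9%), against 8.17% of 21866 protein-coding genes and 13.2% of those expressed in all libraries. One pair, Mrpl46 of the large and Mrps11 of the small subunit, consists of mitochondrial ribosomal protein genes whose starts lie 30 bases apart. Mrpl46 had 7.74 FPKM in Ercc1 DR against 2.48 FPKM in wt AL, a ratio of 0.70, and Mrps11 had 3.16 against 1.55 FPKM, a ratio of 0.17. The genes share the interval between their starts. In this comparison they differed in size of change, not in direction, although the rescaled intervals of Mrps11 overlapped. Between Ercc1 AL and wt AL the ratio was 0.28 for Mrpl46 and -0.11 for Mrps11.

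For 18 of the other pairs the neighbour was also measured between Ercc1 DR and wt AL. The neighbours had a median ratio of -0.04 with 9 of 18 above 0, against 0.44 with 14 of 18 above 0 for the mitochondrial ribosomal protein genes of these pairs. Between Ercc1 DR and Ercc1 AL the medians were 0.13 for the neighbours and 0.34 for the mitochondrial ribosomal protein genes. Mrpl47 overlaps head to head with Ndufb5, a subunit of respiratory complex I, over 157 bases. Ndufb5 was at 61.8 FPKM in Ercc1 DR, 29.0 in Ercc1 AL and 20.6 in wt AL, with a ratio of 0.78 between Ercc1 DR and wt AL but of 0.00 between Ercc1 AL and wt AL, where Mrpl47 had 1.30. Mrpl32 starts 75 bases from Psma2, a proteasome subunit gene, whose ratio was 0.38 between Ercc1 DR and wt AL. Mrps27 starts 81 bases from Ptcd2, a pentatricopeptide repeat protein gene of mitochondria, whose ratio was 1.60, with 13 FPKM in Ercc1 DR against 1.98 FPKM in wt AL. Mrpl30 and Mitd1 went apart, with 1.08 and -0.29.

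**Figure D4:**
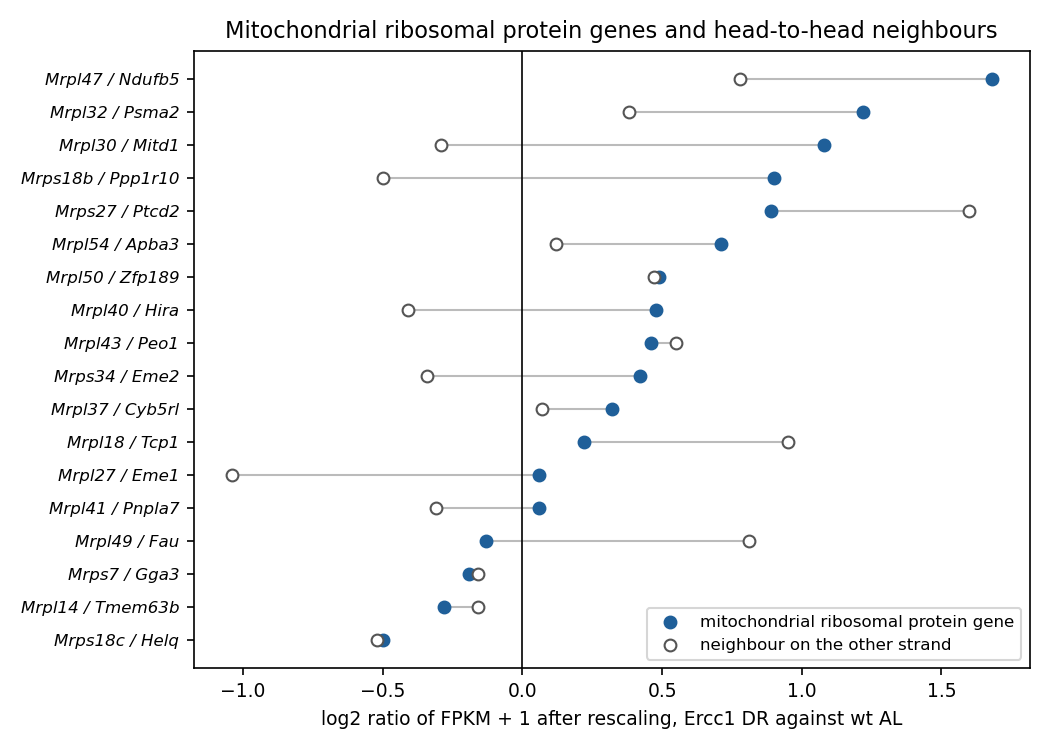
Rescaled log2 ratio between Ercc1 DR and wt AL for mitochondrial ribosomal protein genes (filled circles) and the gene that starts head to head on the other strand (open circles), for the 18 pairs in which both were measured. The filled circle lies to the right in 12 of 18 pairs, and Mrps27 with Ptcd2 and Mrpl18 with Tcp1 are pairs in which the neighbour lies to the right.

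Proteins of the mitochondrial ribosome that carry other names had similar medians. Of 7 measured genes 5 were above 0 between Ercc1 DR and wt AL (71.4%, against 48.0% of all genes). None was past 2-fold in any comparison. The median log2 ratio was 0.40 between Ercc1 DR and wt AL, 0.38 between Ercc1 DR and Ercc1 AL and -0.05 between Ercc1 AL and wt AL. Ptcd3, a pentatricopeptide repeat protein of the small subunit, was at 10.7 FPKM in Ercc1 DR, 5.30 in Ercc1 AL and 2.74 in wt AL, a ratio of 0.99 between Ercc1 DR and wt AL. Dap3, a GTP-binding protein of the small subunit, went slightly the other way with -0.40.

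Genes for making and using the ribosome followed to a lesser degree. Of 26 measured assembly factors, 2 were higher and 1 was lower past 2-fold between Ercc1 DR and wt AL, with a median of 0.21. The shares over all genes were 5.93% higher and 16.4% lower. The higher factors were Ddx21 with 1.42, a helicase best known from the nucleolus, and Malsu1 with 1.01, which binds the large subunit during assembly. Nsun4, a methyltransferase of the small subunit RNA that also works in subunit joining, was the lower one with -1.12. Noa1, a GTPase of mitochondrial translation, had -0.96. The proteases that trim Mrpl32, Afg3l2 and Spg7, had 0.73 and 0.34.

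Mitochondrial translation factors had a median of 0.41 between Ercc1 DR and wt AL over 19 genes. Past 2-fold 1 of them was higher (against 5.93% of all genes) and none was lower (against 16.4%). The higher one was Lrpprc, which stabilises mitochondrial messenger RNA. Lrpprc was at 27.1 FPKM in Ercc1 DR, 13.8 in Ercc1 AL and 7.41 in wt AL, a ratio of 1.01. Its partner Slirp had 0.73. The elongation factor Gfm1 had 0.65 against wt AL and 0.77 against Ercc1 AL. Mitochondrial tRNA synthetases, listed together with the tRNA amidotransferase subunits Pet112, Gatc and Qrsl1, by contrast lay near 0. Their median was 0.11 over 17 genes. None was higher past 2-fold (against 5.93% of all genes) and 1 was lower (against 16.4%), Vars2 with -1.37. Within the mutant their median was -0.02 over 18 genes. None was higher there (against 3.07%) and 1 was lower (against 11.9%), Vars2 with -1.08.

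Transcription factors of the organelle did not share 1 direction. Tfam, which packages mitochondrial DNA and starts its transcription, was at 15.2 FPKM in Ercc1 DR, 33.7 in Ercc1 AL and 37.4 in wt AL, a ratio of -1.99 between Ercc1 DR and wt AL. Tefm, the elongation factor of the mitochondrial RNA polymerase, was at 11.7, 4.62 and 1.85 FPKM in the same order, a ratio of 1.53. Tfam was thus lowest and Tefm highest in Ercc1 DR. Genes of the mitochondrial genome were not analysed here.

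Among 15 regulators of mitochondrial biogenesis the median was 0.05 between Ercc1 DR and wt AL. Past 2-fold 1 was higher (against 5.93% of all genes) and 1 was lower (against 16.4%). The higher one was Esrra, a nuclear receptor, at 6.18 FPKM in Ercc1 DR, 3.15 in Ercc1 AL and 0.909 in wt AL, a ratio of 1.38, and the lower one was Tfam. Ppargc1a, the coactivator induced by fasting in liver, was at 3.2 FPKM in Ercc1 DR, 0.811 in Ercc1 AL and 0.592 in wt AL, with a ratio of 0.95 against wt AL and 1.01 against Ercc1 AL. Of the factors whose motifs were searched, Nrf1 had a ratio of -0.29 between Ercc1 DR and wt AL, Gabpa 0.55 and Yy1 0.75.

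Respiratory chain genes, which the mitochondrial ribosome serves, were further up. Between Ercc1 DR and wt AL 17 of 74 measured nuclear genes of oxidative phosphorylation were higher past 2-fold (against 5.93% of all genes). Lower past 2-fold were 3 (against 16.4%). Their median was 0.63, against 0.46 for mitochondrial ribosomal protein genes. Within the mutant 10 of 75 were higher (against 3.07% of all genes) and 2 lower (against 11.9%). The medians were 0.61 and 0.34 there. Between Ercc1 AL and wt AL the medians were -0.06 and 0.08. Ndufc2, a subunit of complex I, had 67.1 FPKM in Ercc1 DR against 11.9 FPKM in wt AL, a ratio of 1.64. Atp5g1, which encodes a ring subunit of ATP synthase, went the other way with -2.23.

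Cytosolic ribosomal proteins had a median of 0.78 between Ercc1 DR and wt AL over 77 genes. Past 2-fold 19 were higher (against 5.93% of all genes) and 2 lower (against 16.4%). Against Ercc1 AL their median in Ercc1 DR was 0.32 over 76 genes, with 3 higher (against 3.07%) and 1 lower (against 11.9%). Between Ercc1 AL and wt AL it was 0.33 over 76 genes, with 2 higher (against 2.30%) and none lower (against 4.90%). Rpl22l1 had the largest ratio against wt AL, 2.22, and Rpl38 the lowest, -1.61. Cytosolic ribosomal protein genes thus stood above the mitochondrial set in both comparisons with wt AL and level with it within the mutant. Of the 83 symbols on the list 4 lacked a valid value in at least 1 library.

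**Figure D5:**
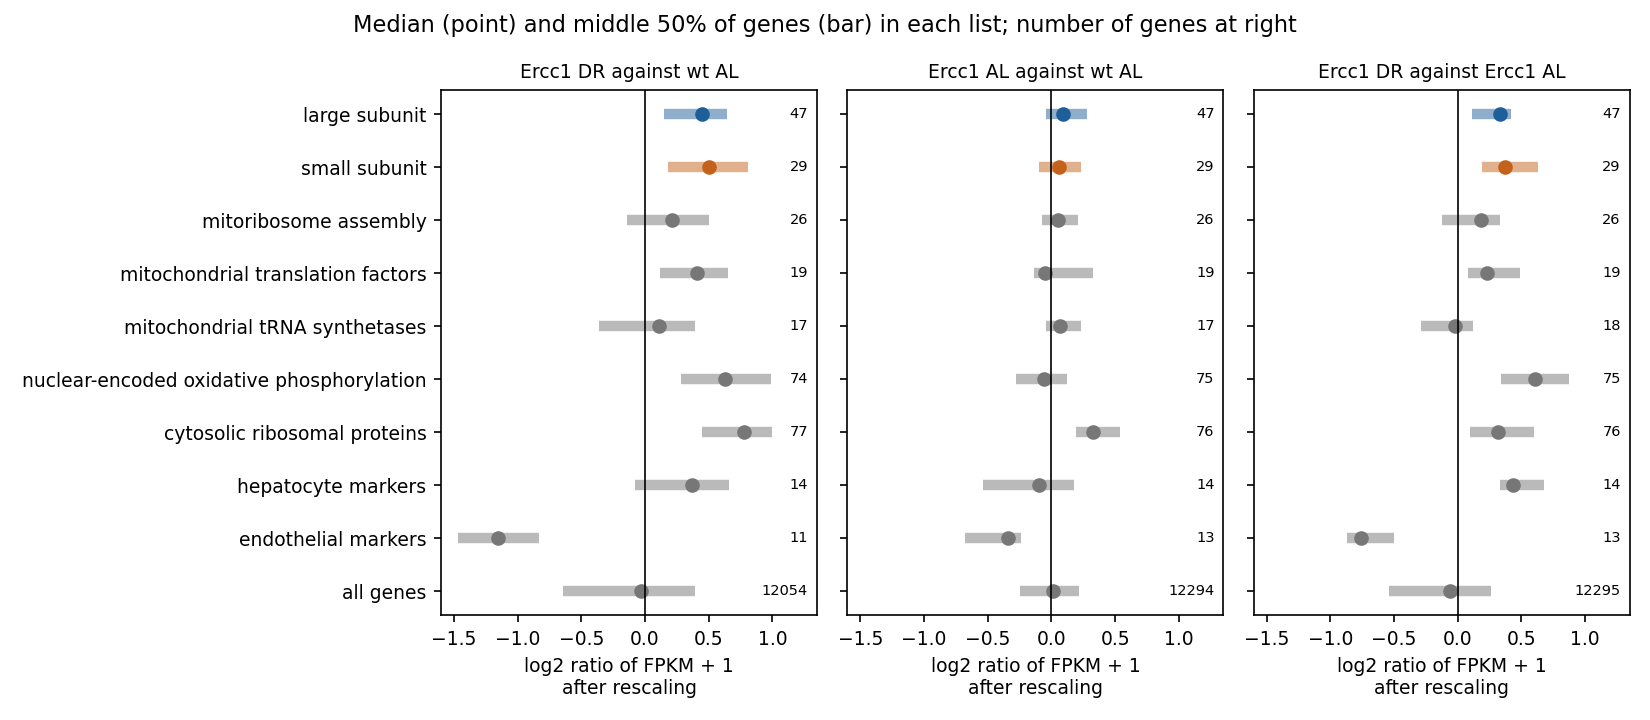
Median (point) and middle 50% of genes (bar) of the rescaled log2 ratio in each gene list for the comparisons of Ercc1 DR with wt AL, Ercc1 AL with wt AL and Ercc1 DR with Ercc1 AL, with the number of genes measured at the right. Both subunits lie right of 0 in the comparisons of Ercc1 DR, at 0.45 and 0.50 against wt AL, with lower medians than oxidative phosphorylation at 0.63 and cytosolic ribosomal proteins at 0.78. Endothelial markers lie left, at -1.15.

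These are bulk samples, in which fewer cells of a type and less RNA per cell cannot be told apart. The labelled tissue was borne out by its markers, with a median of 941 FPKM in Ercc1 DR, 367 in Ercc1 AL and 307 in wt AL over 14 hepatocyte genes. Between Ercc1 DR and wt AL 8 of the 14 were above 0 (57.1%, against 48.0% of all genes). Past 2-fold 2 of the 14 were higher (against 5.93% of all genes) and 1 was lower (against 16.4%). Ratios ran from -1.32 for Serpina1a, a plasma protease inhibitor, to 1.86 for Cps1, the first enzyme of the urea cycle. Their median log2 ratio was 0.37 between Ercc1 DR and wt AL, 0.43 between Ercc1 DR and Ercc1 AL and -0.10 between Ercc1 AL and wt AL. Relative to the scale of the libraries, markers of other cells were mostly lower in Ercc1 DR. Of all genes 16.4% were lower past 2-fold between Ercc1 DR and wt AL, and 48.0% were above 0. Of 11 measured endothelial markers none was above 0 and 6 were lower past 2-fold between Ercc1 DR and wt AL, with a median of -1.15, and the summed level of the 14 markers was 25 FPKM in Ercc1 DR, 48.6 in Ercc1 AL and 54.5 in wt AL. Of 7 measured macrophage markers 1 was lower past 2-fold and none was above 0, with a median of -0.49. Of 9 stellate and fibroblast markers 1 was lower past 2-fold and 4 were above 0 (44.4%, against 48.0% of all genes). Their median was -0.30. The summed level of the macrophage markers was 19.7 FPKM in Ercc1 DR, 28.7 in Ercc1 AL and 21.2 in wt AL, and that of the stellate and fibroblast markers was 50.5, 49.3 and 32.5 FPKM, highest in Ercc1 DR in values as deposited. Of 5 measured cholangiocyte markers and of 5 measured erythroid markers 3 each were lower past 2-fold, with medians of -1.14 and -1.34, and of the neutrophil and of the lymphocyte markers 1 each reached 1 FPKM and was lower. No marker on these lists was at exactly 0 in any library, but the erythroid marker Hba-a1 was at 5.63e-05 FPKM in Ercc1 DR. Endothelial markers were thus lower where most mitochondrial ribosomal protein genes were higher. Hepatocyte markers were divided in Ercc1 DR against wt AL. In Ercc1 DR against Ercc1 AL 11 of the 14 were above 0 (78.6%, against 44.8% of all genes). The part of cell composition in the ratios was not tested.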

How the data were processed

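RNA was measured in 3 liver libraries, 1 per group, named by genotype and diet in the library titles. The authors deposited FPKM with a lower and an upper bound and a status for 23850 entries a library, per the file headers. Reads were placed on mm10, per the submitters' processing notes, and total RNA was depleted of ribosomal RNA with RiboMinus and prepared by a TruSeq v3 protocol, per the labels' protocols. The program behind the FPKM, with its annotation and strand setting, is not given in the sources used here. Since the tables hold no counts, depth was only inferred from interval widths.

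Entries with the status HIDATA or FAIL were treated as missing. Of 494 repeated entries of a symbol, the one with the highest mean FPKM was kept. For each pair the median log2 FPKM ratio over 9053 genes was set to 0 and log2(FPKM + 1) ratios were taken for genes with at least 1 FPKM in either library. The procedure was tested on simulated data. Named genes were, per comparison and subunit, the 4 highest and 4 lowest ratios, per subunit the 4 highest and 2 lowest levels, all genes past 2-fold, and up to 4 per other list with the largest ratios. Mrps30, the genes of promoter matches, neighbour pairs and intervals, and genes of the other lists named for a link to these were chosen after their values were seen. The genes and lists were chosen with earlier results of these data known. Alternatives changed the pseudocount, filter, scaling, value, repeated entries, window and, chosen after seeing the data, left out genes with overlaps or copies. Python 3.11.15, pandas 2.3.3, numpy 2.4.6, scipy 1.17.1, matplotlib 3.10.9 and BLAST+ 2.17.0 were used.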

Additional observations from a re-analysis of the deposited data

How the results depend on the processing

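No subunit median changed sign under any alternative. Leaving aside the values as deposited, the median between Ercc1 DR and wt AL ranged from 0.37 to 0.49 for the large and from 0.45 to 0.75 for the small subunit, that between Ercc1 DR and Ercc1 AL from 0.27 to 0.36 and from 0.31 to 0.48, and that between Ercc1 AL and wt AL from 0.08 to 0.20 and from 0.01 to 0.19. Counts past 2-fold are small and moved with most choices. In Ercc1 DR against wt AL, 12 genes were higher (15.8%, against 9.62% of all genes) and 1 lower (1.32%, against 23.6%) with a pseudocount of 0.1, where the small subunit median was 0.69. With a pseudocount of 0.5, 10 were higher (13.2%, against 7.54%) and 1 lower (1.32%, against 20.6%), and that median was 0.62. Further, 9 were higher (11.8%, against 6.60%) with scaling to the sum of FPKM outside the 100 most abundant genes, 1 was lower (1.32%, against 17.6%) with scaling to official symbols, and the small subunit median was 0.70 with a minimum of 5 FPKM. In Ercc1 DR against Ercc1 AL, 2 genes were higher (2.63%, against 4.14%) with a pseudocount of 0.1 and 0 (against 2.67%) with scaling to official symbols.

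As deposited, 45 genes were higher in Ercc1 DR against wt AL (59.2%, against 24.1%) and 11 in Ercc1 DR against Ercc1 AL (14.5%, against 6.47%), and 0 were lower in Ercc1 AL against wt AL (against 2.20%). The large and small subunit medians were then 1.06 and 1.16, 0.63 and 0.66, and 0.48 and 0.47, in that order of comparisons. Scaling to the sum gave 0.20 and 0.19 between Ercc1 AL and wt AL. Intervals as deposited lay apart upward in 73, 69 and 55 genes in Ercc1 DR against wt AL, Ercc1 DR against Ercc1 AL and Ercc1 AL against wt AL, and downward in 0 in the first and 1 in the last. With interval midpoints 1 gene was higher in Ercc1 AL against wt AL (1.32%, against 1.46%), and the large and small subunit levels were 7.47 and 7.23 FPKM in Ercc1 DR, 4.98 and 4 in Ercc1 AL and 3.33 and 2.54 in wt AL. Over the 33 genes without overlap or copy, an alternative chosen after seeing the data, 1, 0 and 1 genes were higher in the same order of comparisons. Of all genes, with none left out for overlaps or copies, 5.93%, 3.07% and 2.30% were higher. In Ercc1 AL against wt AL 0 of the 33 were lower (against 4.90% of all genes). The small subunit medians over the 33 genes were 0.75, 0.48 and 0.16. Within 150 bases around the start the E-box was in 2 windows. The cause of these shifts was not tested, beyond the smaller number of genes in the last set and the shorter window. Of the other values that answer a comparison 150 stayed close to the reported one, and of the values of single genes 1211 stayed and 193 moved. A value changed sign in 39 of these 1404 cases, 28 of them in FPKM as deposited and all under another scaling, and none of the values concerned was past 2-fold. In Ercc1 DR against wt AL they include Mrps18c, Mrpl14, Mrps7 and Mrpl38, below 0 after rescaling and above 0 as deposited.

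With 1 library a group, leaving out a library was not possible. No paired analysis was possible because each group holds 1 library. Depth limits genes near 1 FPKM, where intervals are widest, and wt AL, the shallowest library.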
